A study of Mus musculus with 10 samples.

Results

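The LIF, gp130 and STAT3 axis was taken as 10 genes, the rows of the deposited table with the gene names *Lif*, *Cntf*, *Clcf1*, *Lifr*, *Il6st*, *Osmr*, *Jak1*, *Jak2*, *Stat3* and *Socs3*. All 10 were found among the 54532 genes of the table, and all 10 passed the filter on low values. The study sequenced RNA of 10 retinas of BALB/c mice aged 2 months. The strain is albino, and its eyes lack the pigment that absorbs stray light. All mice were adapted to darkness for 12 hr. For 5 samples they were then kept for 1 day at 200 lux (normal light, NL), and for the other 5 at 15000 lux (light damage, LD). Values per retina are given below in the order of the labels' numbers, which are 1, 4, 5, 7 and 8 for NL and 1, 4, 6, 7 and 8 for LD. The study calls the samples of a group biological replicates but does not say whether each came from a separate mouse, so n = 5 counts labelled samples and the p-values measure the spread between them.

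Cytokines of the interleukin-6 family share the signalling receptor gp130, which is encoded by *Il6st*. LIF binds LIFR and gp130, CNTF and CLCF1 use CNTFR together with LIFR and gp130, and oncostatin M in the mouse binds mainly OSMR with gp130. The receptors carry Janus kinases (JAK) that phosphorylate STAT3, which then enters the nucleus, and one of its targets, SOCS3, binds gp130 and the kinases and shuts the signal off. In the injured retina, LIF is known as a signal made by Müller glia, and the pathway is known to take part in the glial response and in the protection of photoreceptors.

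After LD, 5 of the 10 genes rose, namely the ligands *Lif* and *Clcf1*, the receptor *Osmr*, the factor *Stat3* and the feedback inhibitor *Socs3*. A gene was called changed at an adjusted p under 0.01 in limma with a fold change above 2. No member was called lower. Of the 24508 genes tested, 6.51% were called, 4.13% higher and 2.37% lower. *Il6st* differed by just under 2-fold, and *Cntf*, *Lifr*, *Jak1* and *Jak2* did not pass the test. The median log2 fold change of the 10 genes was 1.42, compared with -0.01 over all genes tested. The groups did not overlap for 7 of the 10 genes, and for 22.4% of all genes tested. The 10 genes were chosen with earlier results of these data known, so these counts are not independent evidence.

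**Figure D1:**
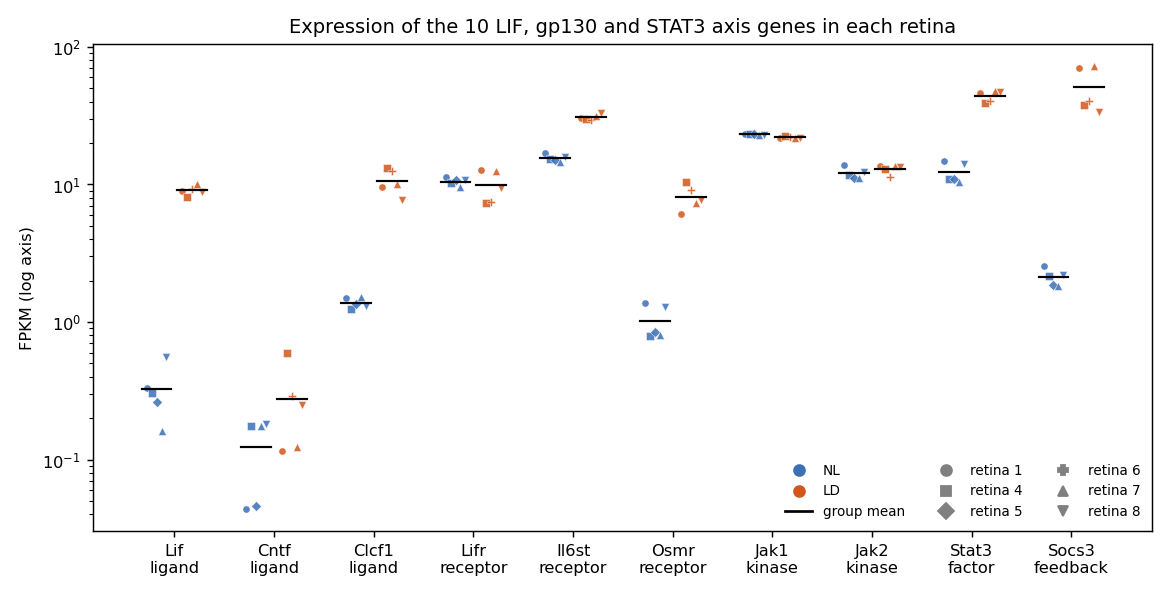
FPKM on a log axis for each of the 10 genes, with 1 point per retina (5 NL in blue, 5 LD in orange, a marker shape for each retina number) and a line at each group mean. *Lif*, *Clcf1*, *Il6st*, *Osmr*, *Stat3* and *Socs3* lie higher in all 5 LD retinas, *Jak1* lies slightly lower (21.6 to 22.4 compared with 22.7 to 23.4 FPKM), and *Cntf*, *Lifr* and *Jak2* overlap.

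The deposited values are FPKM, fragments per kilobase of a gene's length relative to the size of the library. For *Stat3* this length, 9527 bases, equals all its annotated exon bases. How much of each gene's length is transcribed in these retinas was not tested, so comparisons of level between genes are approximate. The reads behind them could be recovered, and amounted to 21343389 to 26832535 in the NL and 18965090 to 23378090 in the LD retinas. Reads of 3 pairs of the same group, LD-4 with LD-6, NL-5 with NL-7 and LD-1 with LD-7, were closer to each other (chi-square per gene 2.52 to 3.41) than those of the other 17 pairs (10.9 to 38.6), though not within sampling noise. With each of these pairs averaged to 1 sample, the same test called 5 of the 10 genes and 1076 of the 24508 genes tested. The rod marker list summed to 8068 to 9881 FPKM in NL and 1192 to 2409 in LD, with 8 of 8 markers called lower. Of the cone markers 4 of 6 were called lower. Of 8 markers of microglia and macrophages 5 were called higher (summed 18.3 to 29.4 FPKM in NL and 38.1 to 87.3 in LD). The groups overlapped for the other 3, *P2ry12* (log2 fold change -0.74), *Tmem119* (0.22) and *Csf1r* (0.74). The Müller glia list summed to 1106 to 1335 FPKM in NL and 543 to 758 in LD. Of its 8 genes *Glul*, glutamine synthetase, was the one called lower, with means of 711 FPKM in NL and 165 in LD. Of the 7 not called, *Sox9* (log2 fold change 0.79) and *Slc1a3* (0.50) were higher without overlap. *Abca8a* (-0.75) was lower without overlap, and the rest overlapped. *Aldh1l1* was called higher among 4 astrocyte markers, and the groups overlapped for the other 3. Of the markers of neutrophils 4 of 6, and of T cells 2 of 4, *Cd3e* and *Cd3d*, were at 3 reads or fewer in every retina, and none of these lists or of those for endothelium, pericytes, fibroblasts, retinal pigment epithelium or lens held a called gene. The part of these shifts in the results below was not tested, and in bulk tissue a change in the number of cells of a type cannot be told apart from a change in RNA per cell.

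The promoters of the members with the largest rises, *Lif* and *Socs3*, are shown because each holds a short motif of STAT or AP-1 factors. They are the 250 bases before the RefSeq transcript start, read 5′ to 3′ on the strand of the gene (GRCm38.p6). The *Lif* window is chr11:4257318-4257567 on the plus strand, and the capitals mark TGACTCA, the motif of AP-1 (FOS and JUN dimers), which begins 228 bases before the start.
Lif: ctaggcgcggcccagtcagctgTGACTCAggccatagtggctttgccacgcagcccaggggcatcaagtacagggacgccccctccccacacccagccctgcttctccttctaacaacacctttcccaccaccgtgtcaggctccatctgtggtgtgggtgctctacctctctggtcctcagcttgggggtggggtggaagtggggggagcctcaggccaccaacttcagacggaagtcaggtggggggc
The *Socs3* window is chr11:117969367-117969616 on the minus strand, and the capitals mark TTCTTAGAA, a match to the STAT motif TTCNNNGAA, which begins 154 bases before the RefSeq start.
Socs3: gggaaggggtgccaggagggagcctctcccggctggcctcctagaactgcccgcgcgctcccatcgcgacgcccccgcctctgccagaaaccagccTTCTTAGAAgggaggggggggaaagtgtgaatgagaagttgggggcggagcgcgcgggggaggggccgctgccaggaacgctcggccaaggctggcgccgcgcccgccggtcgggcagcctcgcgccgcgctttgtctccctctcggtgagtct
The nearest start of a coding *Socs3* transcript in GENCODE lies 180 bases downstream of this RefSeq start. The deposited *Socs3* gene begins upstream of the window, at 117970047 on chromosome 11, so the whole window lies within it. RefSeq windows were matched for 9 of the 10 genes, not for *Clcf1*. Searched on both strands, TTCNNNGAA was in 1 of these 9 genes and in 7.02% of all 32851 windows of the same length. TGACTCA was in 2 of the 9, *Lif* and *Cntf* (beginning 245 bases before the start), and in 4.46% of all windows. No window of a member held both motifs. A match describes the letters in the window and is not evidence of binding.

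Of the ligands, *Lif* rose the most. *Lif* (ENSMUSG00000034394, chr11:4257557-4272514, plus strand) was at 0.333, 0.303, 0.260, 0.162 and 0.561 FPKM in the NL retinas and at 8.96, 8.09, 9.34, 10.2 and 8.82 FPKM in the LD retinas. The LD retinas lay close together and far above every NL retina, of which NL-8 was the highest. On 15 to 63 reads in NL samples and 714 to 1006 in LD samples, the mean was 28.0 times higher after LD, and only 27 of the genes tested had a larger rise. On the scale of log2(FPKM + 0.1), which understates changes of low genes, the fold change was 4.50 (SE 0.21, 95% interval 4.04 to 4.96, limma adjusted p = 1.88e-07).

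*Clcf1*, cardiotrophin-like cytokine factor 1 (ENSMUSG00000040663, chr19:4214238-4223490, plus strand), was at 1.50, 1.24, 1.35, 1.52 and 1.32 FPKM in NL and at 9.57, 13.2, 12.5, 10.1 and 7.74 FPKM in LD. The groups were far apart, with LD-4 and LD-6 the highest. In NL the mean was 1.39 ± 0.120 and in LD 10.6 ± 2.22 FPKM (SD, n = 5 for both), and the log2 fold change was 2.83 (SE 0.14, limma adjusted p = 2.56e-07). In GENCODE it shares 311 of its 3806 exon bases with another gene, AC109138.7, on the same strand. That gene is not among the deposited genes, and the deposited length of *Clcf1* is 3713 bases.

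*Cntf*, ciliary neurotrophic factor (ENSMUSG00000079415, chr19:12763660-12765632, minus strand), stayed near the limit of detection, with 1 to 5 reads in NL samples and 3 to 13 in LD samples. Its levels of 0.0436 to 0.181 FPKM in NL and 0.115 to 0.598 in LD overlapped, and the log2 fold change of 0.67 (95% interval -0.14 to 1.48) did not pass the test (limma adjusted p = 0.209). A change was not detectable at this depth. Of its 1073 exon bases, 847 (78.9%) are also exon of *Zfp91* on the same strand, which was at 19.7 FPKM in NL and 17.9 in LD, so reads assigned to *Cntf* are uncertain.

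In every NL retina *Clcf1* was above *Lif*, by 2.34 to 9.37 times. In LD the ratio of *Clcf1* to *Lif* was 0.878 to 1.63, below every NL value, and fell by 2.00 on the log2 scale (two-sided exact permutation p = 0.00794, the smallest that 5 against 5 allows). *Lif*, *Clcf1* and *Cntf* summed to 1.83 ± 0.155 FPKM in NL and 20.0 ± 2.24 FPKM in LD (SD, n = 5 each).

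Of the receptors, *Osmr*, the partner of gp130 for oncostatin M, rose. *Osmr* (ENSMUSG00000022146, chr15:6813577-6874969, minus strand) was at 1.37, 0.793, 0.850, 0.805 and 1.29 FPKM in NL and at 6.14, 10.3, 9.07, 7.33 and 7.71 FPKM in LD. The groups were separate, with NL-1 and NL-8 above the other NL retinas and LD-4 the highest of all. The mean was 7.95 times higher in LD, with a log2 fold change of 2.89 (SE 0.19, limma adjusted p = 2.12e-06).

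*Il6st* (ENSMUSG00000021756, chr13:112464070-112510086, plus strand), the gp130 receptor itself, was at 16.8, 15.4, 15.2, 14.5 and 15.8 FPKM in NL and at 30.7, 29.9, 29.3, 31.7 and 33.2 FPKM in LD. Its spread was small in both groups, and the lowest LD retina lay well above the highest NL retina. The mean went from 15.5 ± 0.862 to 31.0 ± 1.52 FPKM (SD, n = 5 each), 1.99 times higher, with a log2 fold change of 0.99 (SE 0.05, 95% interval 0.88 to 1.10, limma adjusted p = 3.48e-07). The difference was larger than the spread between retinas, and only the 2-fold minimum kept *Il6st* out of the called genes. At an adjusted p under 0.01 with no fold minimum, 6 of the 10 genes passed, all higher, and 17.0% of all genes did (9.30% higher).

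*Lifr* (ENSMUSG00000054263, chr15:7090614-7197489, plus strand), the receptor that LIF binds, was at 11.3, 10.2, 10.7, 9.57 and 10.7 FPKM in NL and at 12.8, 7.31, 7.40, 12.5 and 9.43 FPKM in LD. LD-1 and LD-7 lay above every NL retina while the other LD retinas lay below, so that the LD values surrounded the NL values. Its log2 fold change was -0.13 (95% interval -0.48 to 0.22, limma adjusted p = 0.602), and 0.00446 without the factor per retina in the deposited values.

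*Osmr* and *Lifr* lie 216 kb apart on chromosome 15 with no protein-coding gene between them. The ratio of *Osmr* to *Lifr* within a retina was 0.0779 to 0.121 in NL and 0.481 to 1.41 in LD. In LD-4 and LD-6 the *Osmr* level was above the *Lifr* level, and in LD-1, LD-7 and LD-8 below it. The ratio of *Il6st* to *Lifr* was 1.41 to 1.52 in NL and 2.40 to 4.09 in LD. Both ratios were higher in 5 of 5 LD retinas than in any NL retina, by 3.14 and 1.13 on the log2 scale (two-sided exact permutation p = 0.00794 for each). Over the 7 ratios and sums computed, Benjamini-Hochberg adjustment left this p at 0.00794, because all were equal. All 7 draw on the same values as the comparisons of single genes, so they add no independent test.

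**Figure D2:**
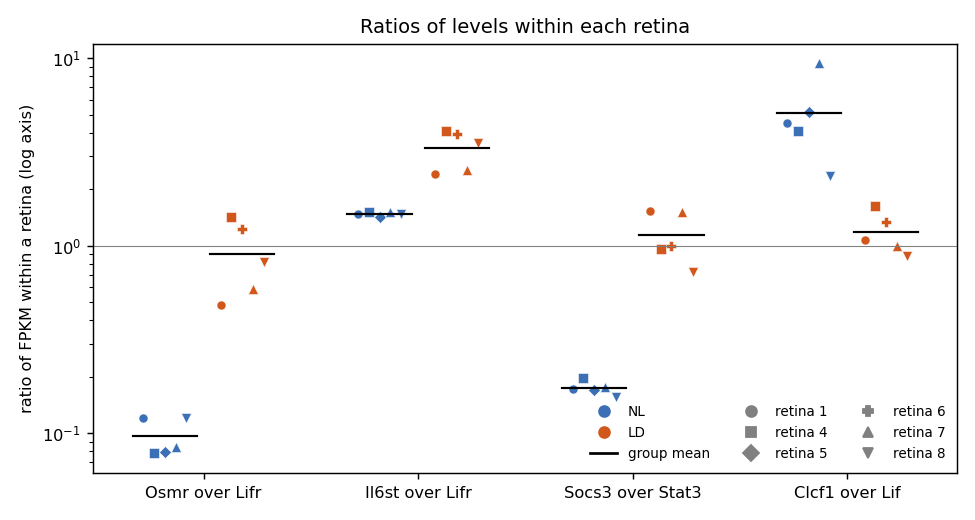
Ratio of FPKM of 1 gene to another within each retina, on a log axis, for 5 NL retinas (blue) and 5 LD retinas (orange), with a line at each group mean. *Osmr* over *Lifr*, *Il6st* over *Lifr* and *Socs3* over *Stat3* are higher in all LD retinas, and *Clcf1* over *Lif* is lower in all LD retinas.

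The kinases *Jak1* and *Jak2* differed little between the groups. *Jak1* (ENSMUSG00000028530, chr4:101152367-101265282, minus strand) was the most abundant member in NL, at 23.3, 23.4, 23.4, 22.7 and 22.8 FPKM, and was at 21.8, 22.4, 22.1, 21.9 and 21.6 FPKM in LD. The groups did not overlap (two-sided exact permutation p = 0.00794, unadjusted), but the difference was small, with a log2 fold change of -0.07 (95% interval -0.14 to -0.01) that did not pass the adjusted test (limma adjusted p = 0.0928). Its direction depended on the scaling: it was 0.0291 when the values were rescaled to TPM and 0.0584 without that factor. *Jak2* (ENSMUSG00000024789, chr19:29251828-29313080, plus strand) ranged from 11.2 to 13.8 FPKM in NL and from 11.4 to 13.7 in LD, with a log2 fold change of 0.11 (95% interval -0.05 to 0.26, limma adjusted p = 0.307).

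*Stat3* (ENSMUSG00000004040, chr11:100885098-100939540, minus strand), which encodes the transcription factor of the axis, was at 14.9, 10.9, 10.9, 10.4 and 14.2 FPKM in NL and at 46.0, 39.0, 40.7, 47.9 and 46.8 FPKM in LD. The lowest LD retina was far above the highest NL retina, and within NL the retinas NL-1 and NL-8 were the highest, as for *Osmr*. In these 2 retinas the markers of retinal pigment epithelium summed to 94.0 and 152 FPKM, compared with 51.6 to 71.8 in the other NL retinas. Without both retinas 6 of the 10 genes were called, *Osmr* and *Stat3* among them, as were 1348 of the 24508 genes tested. The *Stat3* mean of 44.1 ± 3.96 FPKM in LD was 3.59 times that of 12.3 ± 2.10 FPKM in NL (SD, n = 5 for both), with a log2 fold change of 1.85 (SE 0.11, limma adjusted p = 1.25e-06). *Stat3* shares 72 exon bases with *Stat5a* on the opposite strand, and *Stat5a* was at 0.802 FPKM in NL and 1.37 in LD.

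*Socs3* (ENSMUSG00000053113, chr11:117966079-117970047, minus strand), the feedback inhibitor, was at 2.57, 2.15, 1.86, 1.82 and 2.21 FPKM in NL and at 70.8, 37.5, 40.6, 72.5 and 33.7 FPKM in LD. The lowest LD value was over any NL value, and LD-1 and LD-7 stood above the other LD retinas. The mean was 24.0 times higher in LD (51.0 ± 19.0 compared with 2.12 ± 0.304 FPKM), and the log2 fold change was 4.46 (SE 0.22, 95% interval 3.97 to 4.95, limma adjusted p = 3.21e-07), with 29 of the genes tested rising more. *Socs3* was at 0.156 to 0.197 of the *Stat3* level in NL and at 0.720 to 1.54 of it in LD, a log2 difference of 2.66 (two-sided exact permutation p = 0.00794).

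The order of the 10 genes by level in FPKM, which depends on the gene lengths used, differed between the light conditions. In NL the means ran from *Jak1* through *Il6st*, *Stat3*, *Jak2* and *Lifr* to the lower *Socs3*, *Clcf1*, *Osmr*, *Lif* and *Cntf*. *Stat3* was above *Jak2* in 2 of 5 NL retinas, so this pair could not be ordered, and *Lif* was above *Cntf* in 4 of 5. The other neighbours kept their order in each of the 5 retinas, although the ranges overlapped for *Il6st* with *Stat3*, *Jak2* with *Lifr* and *Clcf1* with *Osmr*. In LD, *Socs3* had the highest mean, followed by *Stat3*, *Il6st*, *Jak1* and *Jak2*, then *Clcf1*, *Lifr*, *Lif* and *Osmr*, with *Cntf* last. *Socs3* was above *Stat3* in 2 of 5 LD retinas, LD-1 and LD-7. *Jak2*, *Clcf1*, *Lifr*, *Lif* and *Osmr* could not be ordered as neighbours, with neighbours in the mean order above each other in 2 to 4 of 5 retinas.

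**Figure D3:**
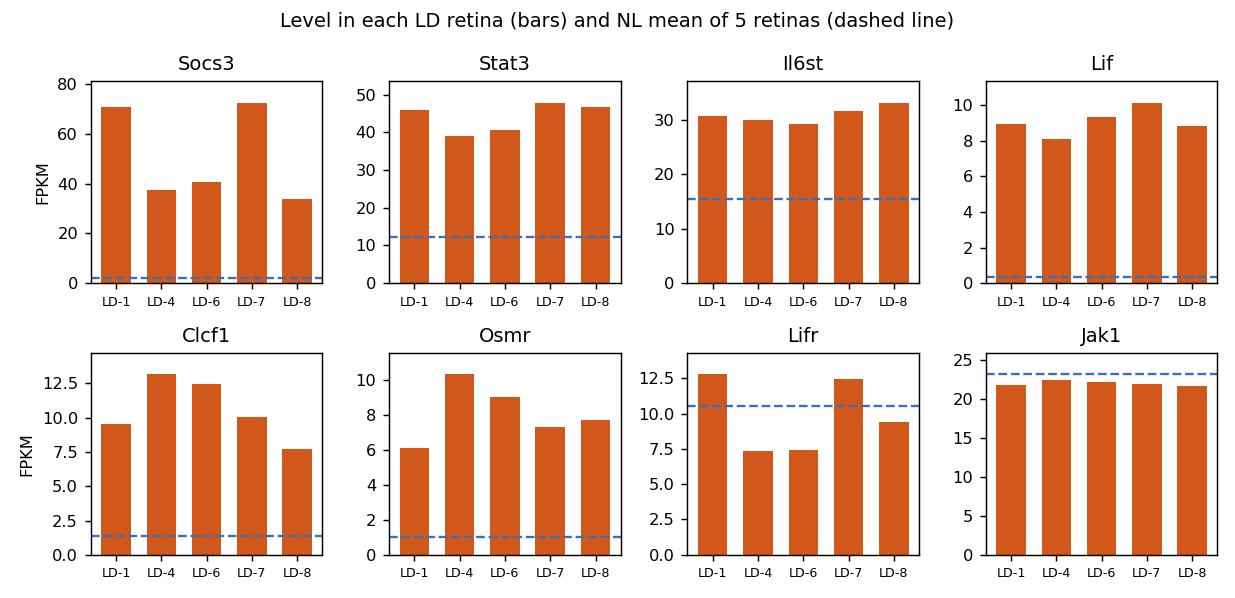
FPKM in each of the 5 LD retinas (bars, from 0) for 8 of the 10 genes, with the mean of the 5 NL retinas as a dashed line. LD-1 and LD-7 are highest for *Socs3* and *Lifr*, LD-4 and LD-6 are highest for *Clcf1* and *Osmr*, and *Il6st*, *Lif* and *Jak1* vary little.

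The LD retinas differed from each other by gene. *Socs3* and *Lifr* were highest in LD-1 and LD-7, whereas *Osmr* and *Clcf1* were highest in LD-4 and LD-6, and *Lif* and *Il6st* varied less, at 8.09 to 10.2 and 29.3 to 33.2 FPKM. The summed rod markers were 2306, 1192, 1271, 1922 and 2409 FPKM in LD-1, LD-4, LD-6, LD-7 and LD-8. The summed Müller glia markers were 570, 727, 758, 543 and 556 FPKM in the same order. LD-1 with LD-7 and LD-4 with LD-6 are also the closest pairs by their reads (chi-square per gene 3.41 and 2.52, compared with 15.2 to 38.6 for the other LD pairs), so the members of each pair may not be independent samples. The labels give no batch, time or mouse that separates these retinas, and the part of these markers in the differences was not tested.

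A list of 31 other genes of gp130 and JAK-STAT signalling, also chosen with earlier results of these data known, was described beside the axis. Of these, 26 were tested, 11 were higher and 1 was lower (4.13% and 2.37% of all genes tested), with a median log2 fold change of 0.40 (-0.01 over all genes). Among the ligands, *Il27*, a subunit of interleukin-27, was at 0, 0.0461, 0.289, 0.277 and 0 FPKM in NL and at 0.803, 4.35, 3.46, 0.817 and 4.93 FPKM in LD. The groups did not overlap, with LD-1 and LD-7 the lowest of the LD retinas. The log2 fold change was 3.65 (SE 0.63, limma adjusted p = 0.00158), and 103 of its exon bases are shared with *Apobr* on the opposite strand, which was at 0.165 FPKM in NL and 0.598 in LD. *Il11* rose by 1.01 on the log2 scale (limma adjusted p = 0.00225), at the edge of the 2-fold minimum, and was not called under 10 of 22 alternatives. The ligands *Il6* and *Osm* were too low to be tested. *Il6* was at 0 reads throughout NL and at 6, 2, 0, 5 and 5 reads in LD, and *Osm* had 0, 1, 0, 1 and 0 reads in NL and 6, 4, 4, 9 and 4 in LD. *Osm*, the ligand of OSMR, lies 16.5 kb from *Lif*.

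Among the other receptors, *Il6ra*, the α receptor of interleukin-6, rose by 2.08 on the log2 scale (0.143 ± 0.0454 to 0.917 ± 0.154 FPKM, limma adjusted p = 2.16e-05). *Cntfr*, which binds CNTF and CLCF1, was at 16.5 to 20.9 FPKM in NL and 13.7 to 20.7 in LD, with a log2 fold change of -0.04 (95% interval -0.28 to 0.20, limma adjusted p = 0.818), which was 0.0614 in TPM and 0.0907 without the factor per retina. The third receptor component for these ligands, with *Lifr* and *Il6st*, was thus present in both groups at a level above 13 FPKM.

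Among the kinases, *Jak3*, which serves receptors with the common γ chain, was at 2.23, 1.38, 1.43, 1.34 and 1.78 FPKM in NL and at 19.3, 12.2, 13.6, 20.1 and 12.3 FPKM in LD. Its log2 fold change was 3.16 (SE 0.18, limma adjusted p = 1.07e-06), and LD-1 and LD-7 were highest, as for *Socs3*. It shares 404 of 5352 exon bases with *Insl3* on the same strand, which was itself higher in LD (0.475 compared with 3.75 FPKM), so part of its reads is uncertain. *Tyk2* was at 5.61 ± 0.166 FPKM in NL and 5.76 ± 0.304 in LD, with a log2 fold change of 0.03 (95% interval -0.08 to 0.15).

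Of the other STAT genes, *Stat2*, best known from interferon signalling, was at 13.7, 12.7, 12.0, 12.3 and 13.5 FPKM in NL and at 47.3, 49.9, 53.5, 58.6 and 61.5 FPKM in LD. The groups were well separated. *Stat2* rose by 2.06 on the log2 scale, from 12.8 ± 0.739 to 54.2 ± 5.91 FPKM (limma adjusted p = 4.19e-08). Within the cluster of *Stat5b*, *Stat5a* and *Stat3* on chromosome 11, *Stat5b* was at 16.9 ± 1.31 and 17.1 ± 1.33 FPKM in NL and LD. *Stat5a* and *Stat6* differed by 0.71 and 0.63 on the log2 scale and were under the 2-fold minimum.

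Of the 12 other feedback inhibitors, 5 rose and *Pias3* fell (4.13% and 2.37% of all genes tested). *Socs1*, which blocks JAK kinases, rose by 3.10 on the log2 scale, from 0.214 ± 0.0550 to 2.62 ± 0.600 FPKM (limma adjusted p = 1.57e-06). *Socs2* (1.06), *Cish* (1.25) and the phosphatases *Ptpn1* (1.16) and *Ptpn6* (1.52) rose by smaller amounts on the same scale. *Pias3*, an inhibitor of STAT3, was at 34.2, 37.3, 35.7, 35.4 and 39.4 FPKM in NL and at 17.5, 11.8, 12.8, 16.6 and 14.8 FPKM in LD. It was lower in every LD retina and fell by 1.32 on the log2 scale (SE 0.10, limma adjusted p = 7.96e-06). *Pias1* was also lower in every LD retina, with a log2 fold change of -0.53 (limma adjusted p = 6.40e-04), under the 2-fold minimum. With a pseudocount of 1 in place of 0.1, *Il11*, *Il6ra*, *Socs2*, *Cish* and *Ptpn6* were under the 2-fold minimum. In that setting 7 genes of the list and 816 of the 24508 genes tested were called.

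**Figure D4:**
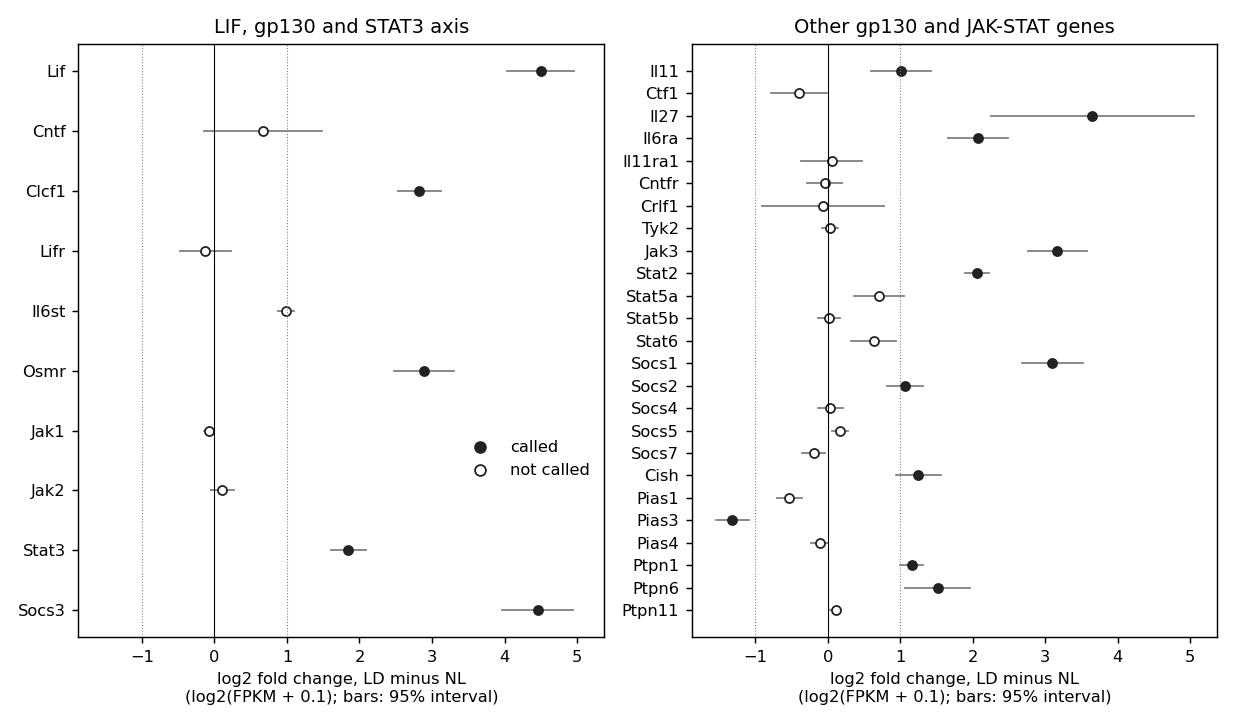
Log2 fold change of LD minus NL on the scale of log2(FPKM + 0.1), with 95% intervals from limma (5 retinas per group), for the 10 genes of the axis (left) and 25 of the 26 tested genes of the other list (right). Filled points are called genes (5 on the left, 11 on the right), and dotted lines mark 2-fold; *Pias3* is the only filled point to the left of 0.

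A list of 25 genes known to respond to STAT3 was described as well. Of these, 24 were tested and 20 rose and none was called lower (4.13% and 2.37% of all genes tested), and the median log2 fold change was 2.61 (-0.01 over all genes). The list holds *Gfap*, *Fgf2* and *Edn2*, which the study names for these samples. It was also chosen with earlier results of these data known, so the count is not independent evidence of its direction. STAT3 protein and its phosphorylation were not measured in these RNA data, and the part of STAT3 in these rises was not tested. *Bcl3*, a nuclear partner of NF-κB, rose the most, from 0.680, 0.418, 0.498, 0.190 and 0.454 FPKM in NL to 32.6, 14.7, 14.8, 33.9 and 11.1 FPKM in LD. Its log2 fold change was 5.21 (SE 0.36, limma adjusted p = 3.13e-06), and LD-1 and LD-7 were the highest retinas, as for *Socs3*. The protease inhibitors *A2m* (2.48 ± 0.994 to 43.9 ± 9.20 FPKM) and *Serpina3n* (8.26 ± 1.87 to 146 ± 34.2 FPKM) rose by 4.15 and 4.12 on the log2 scale (limma adjusted p = 1.26e-06 and 9.60e-08). *Cebpd*, a transcription factor of the acute phase response, rose by 3.66 (limma adjusted p = 1.28e-06), with 562 of its exon bases shared with *Spidr* on the opposite strand, and *Lcn2*, an iron-sequestering protein, by 3.61 (limma adjusted p = 4.35e-04).

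*Gfap*, the intermediate filament of reactive glia, was at 23.1, 8.17, 7.94, 7.24 and 10.5 FPKM in NL and at 81.7, 127, 127, 95.4 and 62.6 FPKM in LD, and rose by 3.20 on the log2 scale (limma adjusted p = 3.90e-05). *Gfap*, *A2m* and *Serpina3n* were highest in LD-4 and LD-6, as were *Osmr* and *Clcf1*. The 4 tested genes that were not called were *Mcl1* (log2 fold change 0.63), *Bcl2l1* (0.28), *Pim3* (0.06) and *Hif1a* (-0.15). *Mcl1* and *Bcl2l1* encode inhibitors of apoptosis, and *Pim3* a kinase that promotes survival. *Mcl1* missed only the 2-fold minimum (limma adjusted p = 5.55e-06). Its groups did not overlap, nor did those of *Bcl2l1* (limma adjusted p = 0.0128), and *Pim1* was called higher (1.02). TTCNNNGAA was in the windows of 2 of the 21 genes of the list with a RefSeq promoter, *Bcl6* and *Icam1*.

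**Figure D5:**
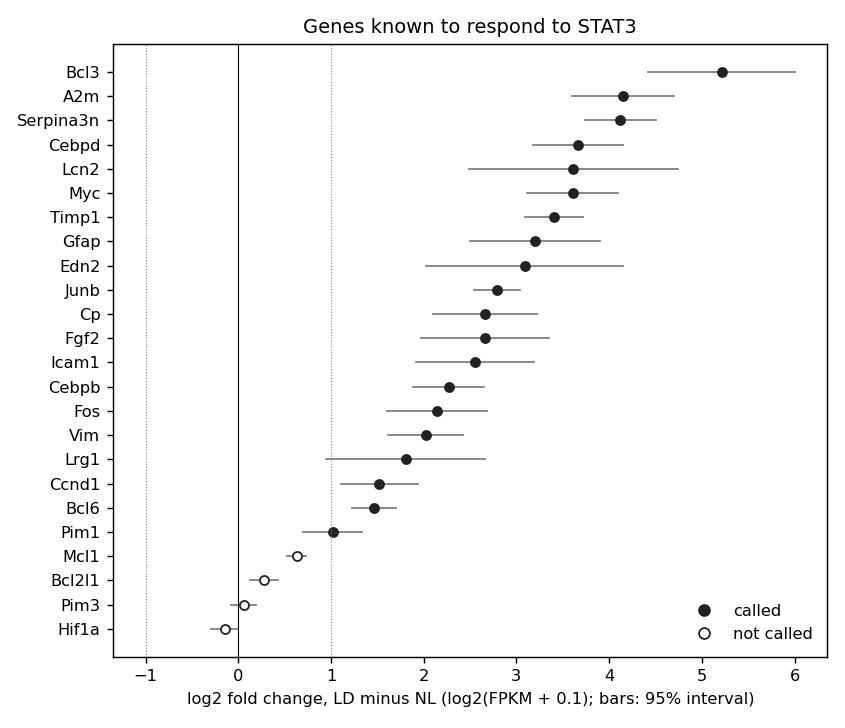
Log2 fold change of LD minus NL on the scale of log2(FPKM + 0.1), with 95% intervals from limma (5 retinas per group), for the 24 tested genes known to respond to STAT3, sorted by size. The 20 filled points are called genes, from *Bcl3* (5.21) to *Pim1* (1.02), and the 4 open points are not called.

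The genes whose pattern over the 10 retinas was most like that of a member were taken from the 12427 coding genes whose mean reached 1 FPKM, by Pearson's r of log2(FPKM + 0.1). These r values are descriptions, since any gene with a large difference between the groups has a high r, and 405 to 578 genes had an r above 0.95 with each of the 4 members examined, *Lif*, *Osmr*, *Stat3* and *Socs3*. For *Lif* the closest were *Trim21* (0.998), *Hmox1* (0.997) and *Flot1* (0.996). For *Osmr* they were *Etv6* (0.998), *A2m* (0.996) and *Cd44* (0.995), which encodes a hyaluronan receptor. For *Stat3* they were *Cebpd* (0.998), *Atf3* (0.997) and *Bst2* (0.996), and for *Socs3* they were *Lgals3bp* (0.998), *Jak3* (0.997) and *Sbno2* (0.997).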

How the data were processed

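RNA was extracted from retinas with TRIzol and made into libraries with a TruSeq RNA kit. The deposited values are FPKM, computed by the authors for 54532 genes in 10 retinas and given with gene lengths and positions. The submitters' processing notes name Bowtie2 2.0.6, TopHat2 2.0.9 and the build mm8, while 53499 of 54409 identifiers matched to GENCODE M21 had the same position on GRCm38, which is used here. The counting program and its annotation are not given in the sources used here, nor whether counting used strand. FPKM times gene length gave whole reads for 100% of values (within 0.01 of a read). The library sizes behind the FPKM were these totals times a factor of 0.951 to 0.968 in NL and 1.041 to 1.069 in LD.

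From the deposited FPKM, log2(FPKM + 0.1) was compared between LD and NL for the 24508 genes that reached 0.1 FPKM in 5 or more retinas, in limma 3.58.1 (R 4.3.3) with an intensity trend and Benjamini-Hochberg adjustment over all genes tested. Calls needed an adjusted p under 0.01 together with a change of over 2-fold. Single values were compared by two-sided exact permutation tests with scipy 1.17.1 (Python 3.11.15), and plots were made with matplotlib 3.10.9. The fit was checked on data simulated with known changes. Promoter sequences were taken from RefSeq windows on GRCm38.p6.

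The genes named are the 10 members, each called gene of the other signalling list with *Il6*, *Osm* and *Cntfr*, the 5 largest rises and 3 largest falls among called genes of the STAT3-responsive list (no fall was called) with *Gfap*, and the 3 closest genes by pattern for *Lif*, *Osmr*, *Stat3* and *Socs3*. Further genes are named where a count or an overlap needed them, with their values seen. A gene counted in the other signalling list is not reported here. The members and lists were chosen with earlier results of these data known. In 24 other settings the pseudocount, filter, scaling, model, threshold, replicate block or retinas included were changed, and 1 more was added after the values were seen.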

Additional observations from a re-analysis of the deposited data

Results flagged for a closer look

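In retina NL-1, 3 genes known to respond to STAT3 lay apart from the other 4 NL retinas by more than Dixon's 95% limit for 5 samples. *Gfap* was at 23.1 FPKM in NL-1 and at 7.24 to 10.5 FPKM in the others. *Lcn2*, an iron-sequestering acute phase protein, was at 7.24 FPKM in NL-1 and at 0.772 to 1.48 FPKM in the others. *Serpina3n*, a protease inhibitor of reactive glia, was at 11.6 FPKM in NL-1 and at 7.05 to 7.88 FPKM in the others. All 3 values were below every LD retina. Among the 60 groups of values examined, chance alone would give about 3 such flags if the groups were independent. All 3 flags fell in NL-1, so this figure does not show that NL-1 is like the other NL retinas. No value of the 10 members was flagged. Without NL-1 the log2 fold changes were 3.49 for *Gfap*, 4.14 for *Lcn2* and 4.25 for *Serpina3n*, and all 3 were still called.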

How the results depend on the processing

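Of the 10 members, *Lif*, *Clcf1*, *Osmr*, *Stat3* and *Socs3* were called under each of the 23 alternatives in which a gene's fold change was recomputed, and *Il6st* passed 2-fold in 9 of them, so that 5 to 6 members were called. From 808 to 1695 of all genes were called in these alternatives. With 1 retina left out, 1379 to 1603 of all genes, 5 to 6 members, 11 to 12 genes of the other signalling list and 18 to 20 STAT3-responsive genes were called. A pseudocount of 1 left 816 genes and 7 of the other signalling list. Without a fold minimum, 6818 genes passed at an adjusted p under 0.05 and 4178 at 0.01. limma-voom on the recovered reads called 1695. Signs turned for *Lifr* (0.00446) without the factor per retina, for *Jak1* with TPM (0.0291) and without the factor (0.0584), and for *Cntfr* with TPM (0.0614), without the factor (0.0907), without NL-4 (0.0105) and without LD-1 (0.0460; range with 1 retina left out -0.102 to 0.0460); none of these passed the test, and the cause was not tested. The median of all genes was 0.08 with TPM and 0.11 without the factor. *Il27* missed the threshold with limma-voom (adjusted p = 0.0122), with the replicate block (0.0276) and without NL-1 and NL-8 (0.0158), an alternative chosen after seeing the data. *Lcn2* did so with the closest pairs averaged (0.0122), where 10 genes of the other list, 17 STAT3-responsive genes and 1076 of all genes were called. *Il11* lost its call in 10 of 22 alternatives, under 2-fold with a pseudocount of 1 (0.32), quantile normalization (0.97), the closest pairs averaged (0.93) and without NL-7 (0.98), NL-8 (0.995), LD-4 (0.93) or LD-7 (0.95), and over the p threshold without NL-1 and NL-8 (adjusted p = 0.0151) and in the 8 retinas of shared numbers, without the block (0.0159) and with it (0.0516). *Socs2* lost it with a pseudocount of 1 (0.79), the closest pairs averaged (0.995) and those 8 retinas (0.97 without the block and with it). A pseudocount of 1 also took *Il6ra* (0.74), *Cish* (0.82) and *Ptpn6* (0.75) under 2-fold.

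Replicate numbers 1, 4, 7 and 8 are shared by the groups. Deviations of same-numbered retinas correlated by -0.09 to 0.07, so no pairing by number was evident. With 4 such pairs, a weak pairing could be missed. With the replicate block, 808 genes were called, compared with 1182 for the same 8 retinas without it, and 6 members, 8 genes of the other list (10 without the block) and 18 STAT3-responsive genes (18 without it). *Ptpn6* missed the p threshold with the block (adjusted p = 0.0131), as did *Socs2* (0.0121). Depth limited *Cntf*, *Il6* and *Osm*, at 13 reads or fewer in every retina.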
